A study of Mus musculus with 6 samples.

Results

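Sphingolipid and ceramide metabolism was followed through 35 listed genes in mouse bone marrow derived macrophages exposed to stearic acid. The members were the listed genes whose mean over the 6 libraries reached 1 TPM. TPM, transcripts per 1000000, is a level per length of transcript, scaled to the same total in each library. The rule held for 31 of the 35 genes, among 11551 genes tested and 36333 in the tables. The stearic acid group was 3 libraries of C57BL/6 wild type macrophages given 100 µM stearic acid for 24 h. The vehicle group was 3 libraries of C57BL/6 wild type macrophages given an equal volume of ethanol for 24 h. Both groups had been grown from marrow for 7 days in M-CSF, the cytokine that drives macrophage differentiation. The labels number the replicates 1 to 3 in each group and do not say whether these were separate animals or cultures. The p-values therefore rest on the scatter among these libraries alone, and that scatter may be technical.

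Sphingolipids are membrane lipids built on a long-chain amino alcohol. Serine palmitoyltransferase joins serine to a saturated fatty acyl-CoA, usually palmitoyl-CoA, and the product is reduced, joined to another fatty acid by a ceramide synthase and desaturated to give ceramide. Ceramide is then turned into sphingomyelin or glycolipids, is phosphorylated, or is cut to sphingosine, whose phosphate (S1P) is exported as a signal for cell surface receptors or broken down for good by a lyase. Saturated fatty acids are substrates of the pathway, and ceramide has been studied as a mediator of their effects in many cells.

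Of the 31 tested genes, 4 were higher with stearic acid, 4 were lower and 23 did not pass at an adjusted p under 0.05 (limma on log2(TPM + 1), Benjamini-Hochberg over all tested genes). Those higher were Cers2, Sgms1, Spns1 and Degs1, and those lower were Sgpp1, Sptssa, Cers4 and S1pr1. The 8 calls are 25.8% of the tested members, against 24.7% of all tested genes called in either direction. Among all tested genes 12.8% were called higher and 11.9% lower. The groups did not overlap in 16 of the 31 genes (51.6%), against 44.6% of all tested genes. In 9 of these all stearic acid libraries were higher (22.8% of all tested genes) and in 7 all were lower (21.7% of all tested genes). The median log2 fold change was -0.05 for the members and -0.03 for all tested genes. The members' log2 fold changes ran from -0.51 for Sgpp1 to 0.38 for Cers2. The share of calls was close to that of all tested genes, and the calls within the pathway went both ways.

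**Figure D1:**
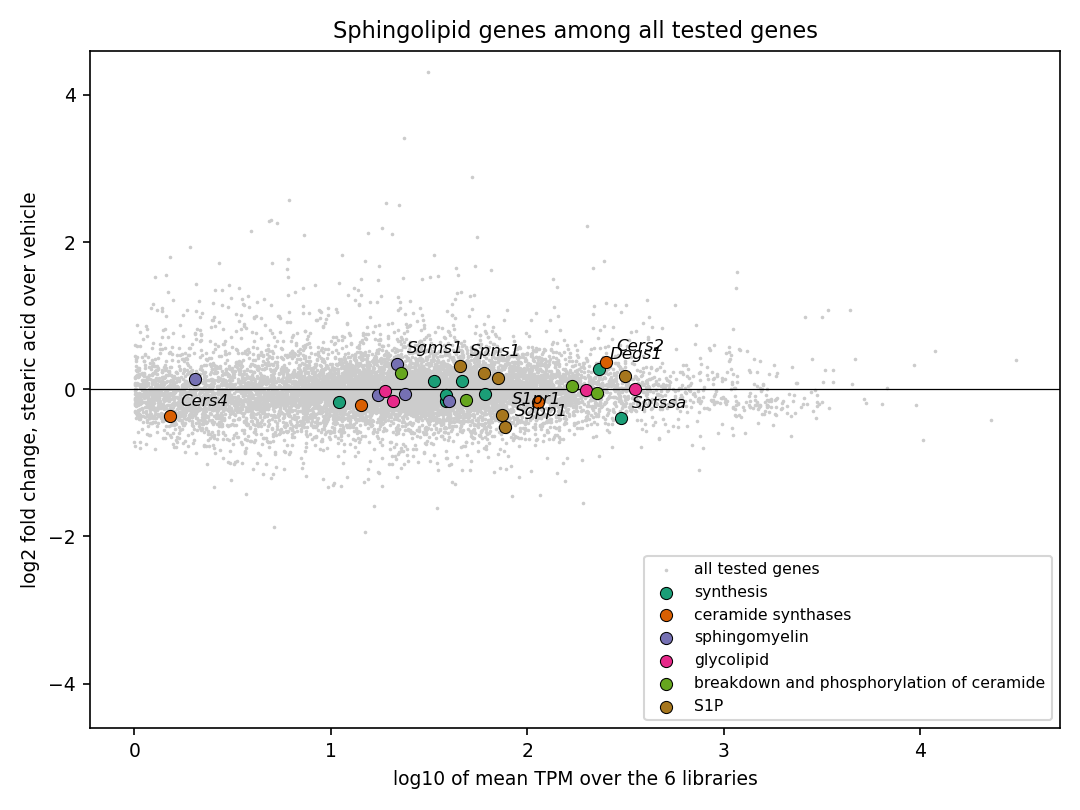
Log2 fold change (stearic acid over vehicle, vertical axis) against the log10 of mean TPM over the 6 libraries (horizontal axis) for 11551 tested genes in grey and the 31 tested sphingolipid genes in colour by step. The 8 named points are the called members, between -0.51 for Sgpp1 and 0.38 for Cers2.

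The depth recovered from the tables was 58.1 to 80.8 M reads or read pairs a library, where M is 1000000. Libraries differed in how far they lay from the vehicle mean. Stearic acid replicate 2 was the farthest of the 3 treated libraries in 8 of the 8 called members and in 20 of the 31 tested ones, as it was in 70.6% of all tested genes. The median absolute log2 distance of the called members was 0.24, 0.50 and 0.38 in stearic acid replicates 1, 2 and 3. None of the 8 calls passed in each of the 6 limma fits that left out 1 library. Leaving out stearic acid replicate 1 gave 5 members called higher and 6 lower. Leaving out stearic acid replicate 2 gave 3 higher and 2 lower, and leaving out stearic acid replicate 3 gave 0 higher and 2 lower. Without vehicle replicate 1 or vehicle replicate 3 there was 1 member higher and 1 lower, and without vehicle replicate 2 there was none. Calls among all 11551 tested genes moved as well, from 2856 with all libraries. They numbered 5010, 1997 and 1005 without stearic acid replicates 1, 2 and 3, and 1073, 550 and 628 without vehicle replicates 1, 2 and 3. Without vehicle replicate 2, where no member was called, 5 of the 31 members were higher and 7 lower at an unadjusted p under 0.05, as were 15.9% (higher) and 23.2% (lower) of all tested genes. Without stearic acid replicate 3, where no rise was called, 5 members were higher at an unadjusted p under 0.05, as were 14.0% of all tested genes. Sptssa passed in 5 of these 6 fits, Sgms1, Sgpp1 and Spns1 in 3, Cers2 in 2, and Degs1, Cers4 and S1pr1 in 1. With no filter on low values Sptssa and Sgms1 were called, and the other 6 missed the threshold (limma adjusted p 0.059 to 0.098).

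All 9 macrophage markers examined, among them Adgre1, Cd68 and Csf1r, were above 1 TPM. Their summed level was 23588 to 29234 TPM in stearic acid libraries and 33226 to 34112 TPM in vehicle libraries. Most of this sum was Lyz2, at 17694 to 22360 TPM with stearic acid against 25775 to 27176 TPM with vehicle. Of the 9 markers, Lyz2, Adgre1, Itgam, Fcgr1 and Cx3cr1 were called lower, Cd68 was called higher (2459 ± 127 TPM with stearic acid, 1999 ± 26.5 TPM with vehicle), and Csf1r, Mertk and Cd14 did not pass. Of the markers of other cells, S100a8 of neutrophils and Cd79b of B cells reached 1 TPM. The summed neutrophil and progenitor markers came to 6.40 to 7.22 TPM in stearic acid libraries against 2.50 to 4.75 TPM in vehicle libraries, most of it S100a8 (6.41 ± 0.467 TPM with stearic acid, 3.33 ± 1.19 TPM with vehicle). The related S100a9 averaged 0.145 TPM with stearic acid and 0.295 TPM with vehicle, with overlap. The lymphoid sum was 1.28 to 1.80 TPM with stearic acid against 2.64 to 2.95 TPM with vehicle, and Cd3e, Cd3g, Nkg7 and Ncr1 were at 0 throughout. Erythroid and mast cell markers summed to 1.21 to 1.63 TPM with stearic acid against 0.559 to 0.830 TPM with vehicle. Kit carried that difference (1.26 ± 0.182 TPM with stearic acid, 0.466 ± 0.066 TPM with vehicle), and Hbb-bs and Mcpt8 were among the markers at 0. The dendritic cell sum (0.840 to 1.27 TPM with stearic acid, 1.19 to 1.75 TPM with vehicle) and the stromal and endothelial sum (1.24 to 3.37 TPM with stearic acid, 2.69 to 4.41 TPM with vehicle) overlapped between the groups. The part of these differences in the results was not tested, and in bulk RNA fewer cells of a type and less RNA per cell cannot be told apart.

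**Figure D2:**
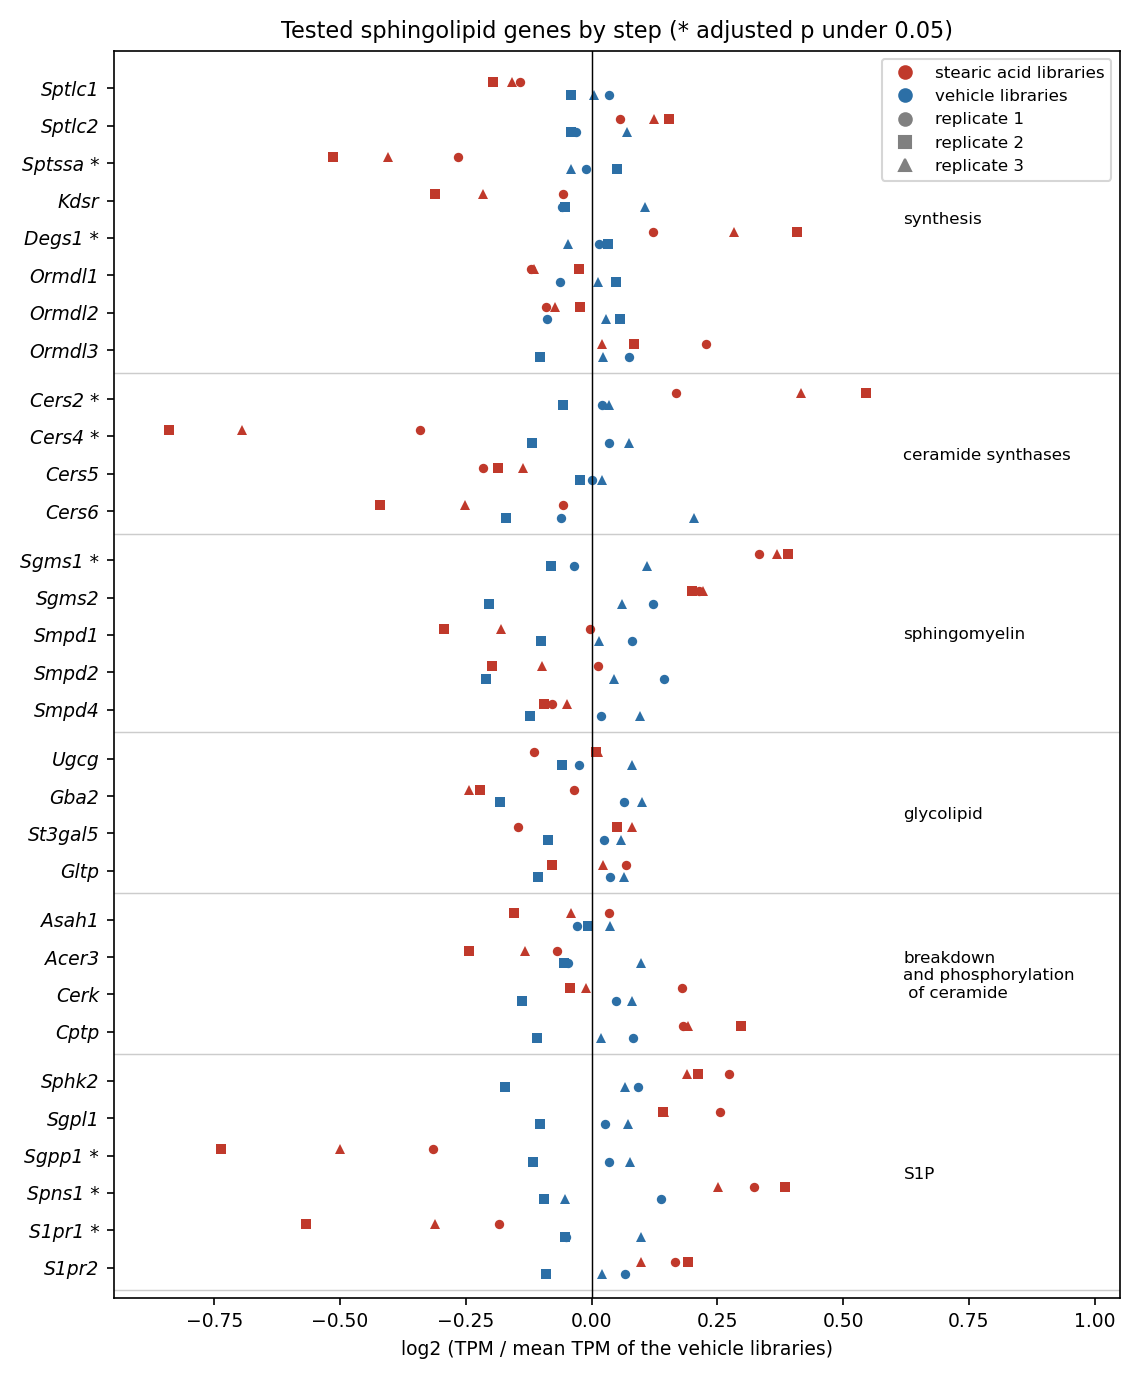
Each point is 1 library, placed by the log2 of its TPM over the mean TPM of the 3 vehicle libraries (horizontal axis), with the 31 tested genes grouped by step and stearic acid libraries drawn above vehicle libraries within each gene. Asterisks mark the 8 genes with an adjusted p under 0.05, and the 4 glycolipid genes show overlapping groups.

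Among the 8 tested genes of ceramide synthesis and its control, Sptssa fell, Degs1 rose and 6 did not pass. The calls are 25.0% of these genes, against 24.7% of all tested genes. Sptssa encodes the small subunit that activates serine palmitoyltransferase (NCBI gene 104725, chromosome 12, 54645374 to 54656572, GRCm38). It was at 285, 239 and 258 TPM in stearic acid replicates 1 to 3, against 339, 354 and 332 TPM in vehicle replicates 1 to 3. Every stearic acid library lay below every vehicle library, and Sptssa fell to 261 ± 22.7 TPM with stearic acid, against 342 ± 10.98 TPM with vehicle (SD, n = 3 each; log2 fold change -0.39, SE 0.08, limma adjusted p = 0.011). The call was lost without vehicle replicate 2 (limma adjusted p = 0.056). Sptlc1, the subunit common to all forms of the enzyme, had 37.0, 35.6 and 36.6 TPM with stearic acid against 41.8, 39.7 and 41.0 TPM with vehicle. These groups did not overlap either, but Sptlc1 did not pass (log2 fold change -0.16, SE 0.06, limma adjusted p = 0.095; 0.045 with quantile normalization). The catalytic subunit Sptlc2 had 46.3, 49.5 and 48.6 TPM with stearic acid against 43.6, 43.3 and 46.7 TPM with vehicle, and the groups overlapped (log2 fold change 0.11, limma adjusted p = 0.25). The ratio of Sptlc2 to Sptlc1 within a library was 1.25, 1.39 and 1.33 with stearic acid against 1.04, 1.09 and 1.14 with vehicle, a quantity chosen after the values were seen. Sptlc3, the alternative catalytic subunit, was listed at 0 in all 6 libraries.

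Degs1 encodes the desaturase that turns dihydroceramide into ceramide (NCBI gene 13244, chromosome 1, 182275964 to 182282854). Its levels were 229, 279.6 and 256 TPM with stearic acid against 213, 215 and 204 TPM with vehicle. All 3 treated libraries lay above the vehicle libraries, replicate 1 by the least, and Degs1 rose to 255 ± 25.2 TPM with stearic acid, against 211 ± 6.07 TPM with vehicle (log2 fold change 0.27, SE 0.08, limma adjusted p = 0.040). This was the call nearest the threshold among the members. Without a single library it passed only where stearic acid replicate 1 was left out (limma adjusted p = 0.0019, against 0.081 to 0.13 in the other 5 fits), and it did not pass with median-of-ratios scaling (0.062) or in limma without a trend (0.055). Kdsr, the reductase that acts between serine palmitoyltransferase and the ceramide synthases, averaged 10.3 ± 0.922 TPM with stearic acid and 11.7 ± 0.771 TPM with vehicle and did not pass (log2 fold change -0.18, limma adjusted p = 0.17).

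The ORMDL proteins bind serine palmitoyltransferase and restrain it when ceramide is plentiful. Their 3 genes did not pass. Ormdl1 averaged 37.5 ± 1.39 TPM with stearic acid and 39.9 ± 1.55 TPM with vehicle. Ormdl2 averaged 59.8 ± 1.46 TPM with stearic acid and 62.5 ± 3.30 TPM with vehicle. Ormdl3 averaged 34.6 ± 2.57 TPM with stearic acid and 32.0 ± 1.99 TPM with vehicle. The 95% intervals of the log2 fold change were -0.24 to 0.07 for Ormdl1, -0.21 to 0.09 for Ormdl2 and -0.08 to 0.29 for Ormdl3. Ormdl1 made up 28.4% ± 0.754 of the summed ORMDL level with stearic acid against 29.7% ± 0.564 with vehicle, without overlap (two-sided exact permutation p = 0.1, the smallest that 3 against 3 allow, and 0.18 adjusted over 9 family shares). The shares of Ormdl2 and Ormdl3 overlapped between the groups. Exons of Ormdl2 share 1114 bases with Dnajc14 on the opposite strand, and whether strand was used in counting is not given, so reads of this pair may not be separable. The summed level of the 9 listed synthesis genes was 741, 748 and 738 TPM with stearic acid against 779, 799 and 773 TPM with vehicle (log2 difference -0.08, two-sided exact permutation p = 0.1, 0.6 adjusted over 6 steps).

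Of the 4 ceramide synthases, 1 was called higher and 1 lower, where 24.7% of all tested genes were called in either direction. Each synthase prefers fatty acids of particular chain lengths. Cers2, which uses very long chains, rose, and Cers4 fell. Cers5 and Cers6, which make ceramide with palmitoyl chains, did not pass. Cers2 (NCBI gene 76893, chromosome 3, 95314771 to 95323599) was at 244, 318 and 290.3 TPM with stearic acid against 221, 209 and 223 TPM with vehicle. Its treated libraries all exceeded the vehicle libraries, with replicate 2 the highest and replicate 1 the lowest of them. The means were 284 ± 37.1 TPM with stearic acid and 218 ± 7.38 TPM with vehicle (log2 fold change 0.38, SE 0.09, limma adjusted p = 0.024). The call was lost without stearic acid replicate 3 (0.085) and without vehicle replicate 1, 2 or 3 (limma adjusted p 0.069 to 0.082). Exons of Cers2 share 75 bases with Setdb1 on the opposite strand.

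Cers4 (NCBI gene 67260, chromosome 8, 4492818 to 4529603) was the lowest gene within the filter, with a mean of 1.52 TPM over the 6 libraries. It had 1.45, 1.02 and 1.13 TPM with stearic acid against 1.88, 1.69 and 1.93 TPM with vehicle. At the recovered depth these are about 28.1 to 31.9 reads per kilobase in the treated libraries and 36.9 to 52.1 in the vehicle libraries. It fell without overlap between the groups (log2 fold change -0.37, SE 0.11, limma adjusted p = 0.036), and among fits without a single library it passed only where stearic acid replicate 1 was left out (0.0053, against 0.073 to 0.13 in the others). Exons of Cers4 share 886 bases with Vmn2r-ps89 and 214 with Gm36956 on the opposite strand, for which no levels were at hand. Cers5 was at 104, 106 and 109.7 TPM with stearic acid against 121, 119 and 122 TPM with vehicle. The groups were apart, yet Cers5 did not pass (log2 fold change -0.18, SE 0.06, limma adjusted p = 0.060; 0.031 with quantile normalization). Cers6 averaged 13.1 ± 1.66 TPM with stearic acid and 15.4 ± 2.10 TPM with vehicle, with overlap (log2 fold change -0.22, limma adjusted p = 0.19).

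Shares within the family do not depend on the scaling between libraries. Cers2 made up 67.0%, 72.8% and 70.1% of the summed ceramide synthase level in stearic acid replicates 1 to 3, against 61.6%, 60.9% and 61.1% in vehicle replicates 1 to 3. The means were 69.99% ± 2.89 with stearic acid and 61.2% ± 0.377 with vehicle. Cers5 made up 26.4% ± 2.10 with stearic acid against 33.9% ± 0.559 with vehicle. Cers4 accounted for 0.302% ± 0.0846 with stearic acid and 0.515% ± 0.0201 with vehicle. The groups did not overlap in any of these 3 shares (two-sided exact permutation p = 0.1 each, the smallest possible, and 0.18 adjusted over 9 shares), and the Cers6 shares overlapped. The differences in share stayed between 7.36 and 10.2 percentage points for Cers2 and between -8.54 and -6.45 for Cers5 when single libraries were left out. The summed level of the 4 genes was 365, 436 and 414 TPM with stearic acid against 358, 343 and 365 TPM with vehicle, which overlapped (log2 difference 0.18, two-sided exact permutation p = 0.2, 0.6 adjusted over 6 steps).

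**Figure D3:**
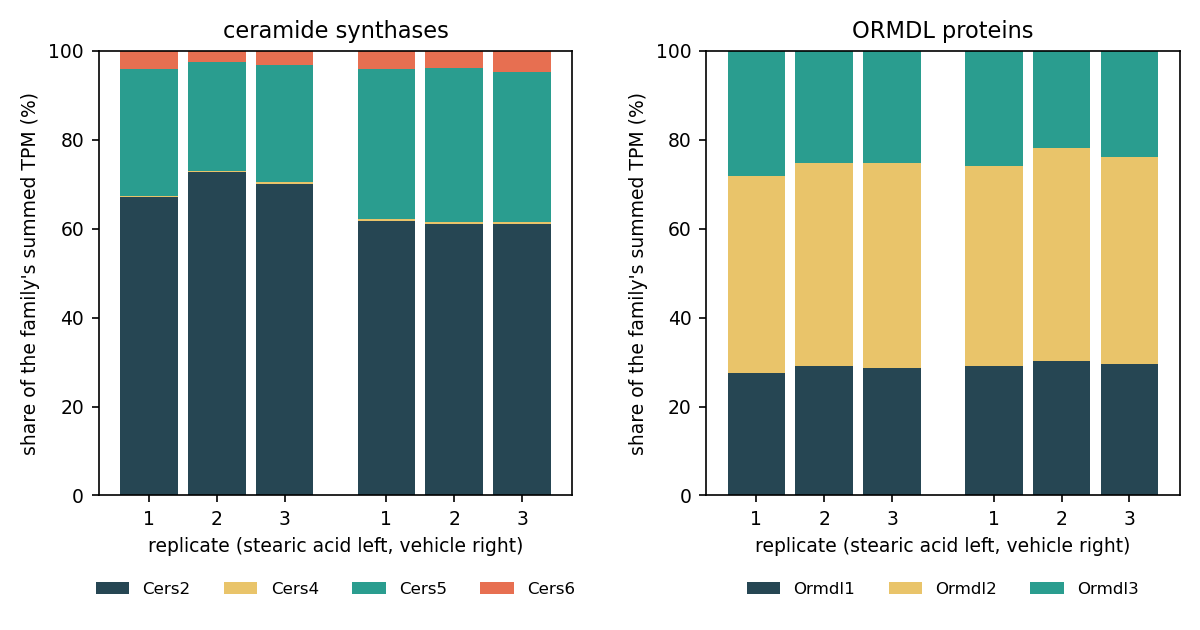
Stacked bars give each gene's share, in percent, of the summed TPM of its family in each library (replicates 1 to 3, stearic acid left and vehicle right), for the ceramide synthases and the ORMDL proteins. The Cers2 share is 67.0% to 72.8% in stearic acid libraries and 60.9% to 61.6% in vehicle libraries, and the Ormdl2 and Ormdl3 shares overlap between the groups.

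In the sphingomyelin group 1 of 5 tested genes rose, where 12.8% of all tested genes were called higher. Sgms1, the sphingomyelin synthase of the Golgi (NCBI gene 208449, chromosome 19, 32122727 to 32389885), had 23.8, 24.8 and 24.4 TPM with stearic acid against 18.5, 17.9 and 20.4 TPM with vehicle. The treated libraries lay close together and above all vehicle libraries. The means were 24.3 ± 0.496 TPM with stearic acid and 18.9 ± 1.32 TPM with vehicle (log2 fold change 0.35, SE 0.08, limma adjusted p = 0.015). Without stearic acid replicate 3, vehicle replicate 1 or vehicle replicate 2 it did not pass (limma adjusted p 0.058 to 0.067). Sgms2, the synthase of the plasma membrane, was low, at 2.20, 2.18 and 2.21 TPM with stearic acid against 2.06, 1.65 and 1.98 TPM with vehicle. These groups did not overlap, but the gene did not pass (log2 fold change 0.14, limma adjusted p = 0.28). Sgms1 supplied 91.7% ± 0.192 of the summed level of both synthases with stearic acid and 90.9% ± 0.841 with vehicle, with overlap.

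Among the members, the enzymes that release ceramide from sphingomyelin did not pass. Smpd5, of the same step but outside the member list, was called higher (log2 fold change 0.35, limma adjusted p = 0.038). Smpd3, also outside the list, was below the filter. Smpd1, the acid sphingomyelinase of the lysosome, averaged 37.6 ± 3.86 TPM with stearic acid and 41.9 ± 2.62 TPM with vehicle (log2 fold change -0.15, 95% interval -0.36 to 0.05). Of the neutral sphingomyelinases, Smpd2 averaged 16.8 ± 1.23 TPM with stearic acid and 17.9 ± 2.20 TPM with vehicle, and Smpd4 averaged 23.2 ± 0.371 TPM with stearic acid and 24.5 ± 1.86 TPM with vehicle. Their 95% intervals were -0.31 to 0.15 and -0.24 to 0.11. Exons of Smpd2 share 905 bases with Mical1 on the opposite strand. The summed level of the 5 genes differed by -0.01 on the log2 scale (two-sided exact permutation p = 0.8, 0.96 adjusted over 6 steps).

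Glycolipid genes showed no call. None of the 4 passed in limma, with or without the trend, or at an unadjusted p under 0.05, which 40.4% of all tested genes reached. Ugcg, which makes glucosylceramide and so opens the glycolipid branch, averaged 18.6 ± 0.923 TPM with stearic acid and 19.02 ± 0.967 TPM with vehicle (95% interval of the log2 fold change -0.20 to 0.14). St3gal5, which makes the ganglioside GM3, averaged 199 ± 16.6 TPM with stearic acid and 199 ± 10.4 TPM with vehicle (95% interval -0.18 to 0.18). Gltp, a carrier of glycolipids between membranes, was the most abundant member at 353 ± 18.5 TPM with stearic acid and 352 ± 21.8 TPM with vehicle (95% interval -0.16 to 0.17). Gba2, the glucosylceramidase outside the lysosome, averaged 19.6 ± 1.59 TPM with stearic acid and 21.9 ± 2.26 TPM with vehicle (95% interval -0.37 to 0.06). Exons of Gba2 share 133 bases with Creb3 and 159 with Rgp1 on the opposite strand. The groups overlapped in all 4 genes, and the intervals leave room for differences of up to 0.37 on the log2 scale.

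Genes that cut or phosphorylate ceramide also gave no call in limma, with or without the trend, and 1 of 4 was higher at an unadjusted p under 0.05, as were 19.3% of all tested genes. That gene was Cptp, the carrier of ceramide-1-phosphate, with 23.9, 25.9 and 24.0 TPM with stearic acid against 22.3, 19.5 and 21.3 TPM with vehicle (log2 fold change 0.22, limma adjusted p = 0.070). It passed with median-of-ratios scaling (0.034), quantile normalization (0.047) and RPKM (0.030), and without stearic acid replicate 1 (0.046). Asah1, the acid ceramidase of the lysosome, averaged 221 ± 14.6 TPM with stearic acid and 229 ± 5.28 TPM with vehicle. Cerk, the ceramide kinase, averaged 170.5 ± 14.5 TPM with stearic acid and 165 ± 13.2 TPM with vehicle. Acer3, an alkaline ceramidase, was at 48.9, 43.4 and 46.9 TPM with stearic acid against 49.7, 49.4 and 55.0 TPM with vehicle, without overlap (log2 fold change -0.14, limma adjusted p = 0.19). Acer2, another alkaline ceramidase, was below the filter at 0.354 ± 0.0408 TPM with stearic acid and 0.214 ± 0.0827 TPM with vehicle (two-sided exact permutation p = 0.1, the smallest possible).

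Genes of S1P metabolism and signalling held 3 of the 8 calls among 6 tested genes, where 24.7% of all tested genes were called. The groups did not overlap in 6 of the 6, against 44.6% of all tested genes. Both counts include Spns1, a lysosomal transporter of lysophospholipids listed here by its family. The other calls, Sgpp1 and S1pr1, were falls. Sgpp1, the phosphatase that returns S1P to sphingosine (NCBI gene 81535, chromosome 12, 75714248 to 75735729), had the largest fall among the members on the log2(TPM + 1) scale. As a ratio of mean TPM Cers4 was lower, at 0.655 against 0.704 for Sgpp1. Sgpp1 was at 72.3, 54.0 and 63.6 TPM with stearic acid against 92.1, 82.9 and 94.7 TPM with vehicle, with means of 63.3 ± 9.16 TPM with stearic acid and 89.9 ± 6.21 TPM with vehicle (log2 fold change -0.51, SE 0.11, limma adjusted p = 0.014). The call was lost without vehicle replicate 1, 2 or 3 (limma adjusted p 0.051 to 0.070). S1pr1, a receptor for S1P (NCBI gene 13609, chromosome 3, 115710433 to 115715055), was at 73.2, 56.1 and 67.0 TPM with stearic acid against 80.3, 80.2 and 89.1 TPM with vehicle. It fell (log2 fold change -0.35, SE 0.10, limma adjusted p = 0.036), and among fits without a single library passed only without stearic acid replicate 1 (0.0015, against 0.069 to 0.14 in the others). The related receptor S1pr2 was at 75.3, 76.6 and 71.8 TPM with stearic acid against 70.3, 63.1 and 68.0 TPM with vehicle, higher in each treated library but not past the threshold (log2 fold change 0.15, SE 0.07, limma adjusted p = 0.14; 0.048 with RPKM).

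Sphk1 showed the widest ratio among the 35 listed genes, and it lay just outside the filter with a mean of 0.858 TPM over the 6 libraries. Sphk1 is a kinase that makes S1P from sphingosine (NCBI gene 20698, chromosome 11, 116530836 to 116536675). Its levels were 1.03, 2.02 and 1.29 TPM with stearic acid against 0.407, 0.129 and 0.265 TPM with vehicle. The lowest treated library was above the highest vehicle library, and the means were 1.45 ± 0.512 TPM with stearic acid and 0.267 ± 0.139 TPM with vehicle, a ratio of 5.43. At the recovered depth these levels stand for about 22.7 to 55.6 reads per kilobase in the treated libraries and 3.45 to 11.3 in the vehicle libraries. Exons of Sphk1 share 192 bases with Gm29292 on the opposite strand, for which no level was at hand. A two-sided exact permutation test over the libraries returned 0.1, its lowest possible p. In the limma fit with no filter on low values Sphk1 was called higher (log2 fold change 0.94, SE 0.16, limma adjusted p = 0.038). The limma fits that left out 1 library all used the filter, so this call was not checked that way.

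The other sphingosine kinase, Sphk2, was far more abundant, at 67.3, 64.5 and 63.5 TPM with stearic acid against 59.3, 49.4 and 58.3 TPM with vehicle (log2 fold change 0.23, SE 0.08, limma adjusted p = 0.076). It passed with median-of-ratios scaling (0.023), quantile normalization (0.038) and RPKM (0.025). Exons of Sphk2 share 373 bases on the opposite strand with Rpl18, a ribosomal protein gene at 742 TPM, and 539 bases with Dbp, so part of its level could be reads of these genes if strand was not used in counting. Rpl18 had a log2 fold change of -0.02 and Dbp of -0.84 (limma adjusted p = 0.85 and 0.076), and neither passed. Sphk1 made up 2.18% ± 0.781 of the summed kinase level with stearic acid against 0.465% ± 0.210 with vehicle, without overlap (two-sided exact permutation p = 0.1, 0.18 adjusted over 9 shares).

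Sgpl1, the lyase that breaks S1P down irreversibly, was abundant, at 352, 326 and 326 TPM with stearic acid against 300.3, 275 and 310.1 TPM with vehicle. The groups were apart and it did not pass (log2 fold change 0.18, SE 0.07, limma adjusted p = 0.087), though it passed with median-of-ratios scaling (0.026) and RPKM (0.027). Spns1 (NCBI gene 73658, chromosome 7, 126370060 to 126377934) was listed with this group by its family, but it encodes a lysosomal transporter of lysophospholipids, not the S1P exporter. It rose to 50.4, 52.6 and 48.0 TPM with stearic acid, against 44.3, 37.7 and 38.8 TPM with vehicle (log2 fold change 0.32, SE 0.08, limma adjusted p = 0.025), and lost the call without stearic acid replicate 3, vehicle replicate 2 or vehicle replicate 3 (limma adjusted p 0.066 to 0.097). The S1P exporter Spns2 was below the filter at 0.216 ± 0.0961 TPM with stearic acid and 0.415 ± 0.158 TPM with vehicle, with overlap (two-sided exact permutation p = 0.2). Exons of Spns2 share 131 bases on the opposite strand with Mybbp1a, a gene at 94.2 TPM. The summed level of the 8 genes, Spns1 included, differed by 0.05 on the log2 scale (two-sided exact permutation p = 0.6, 0.96 adjusted over 6 steps).

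**Figure D4:**
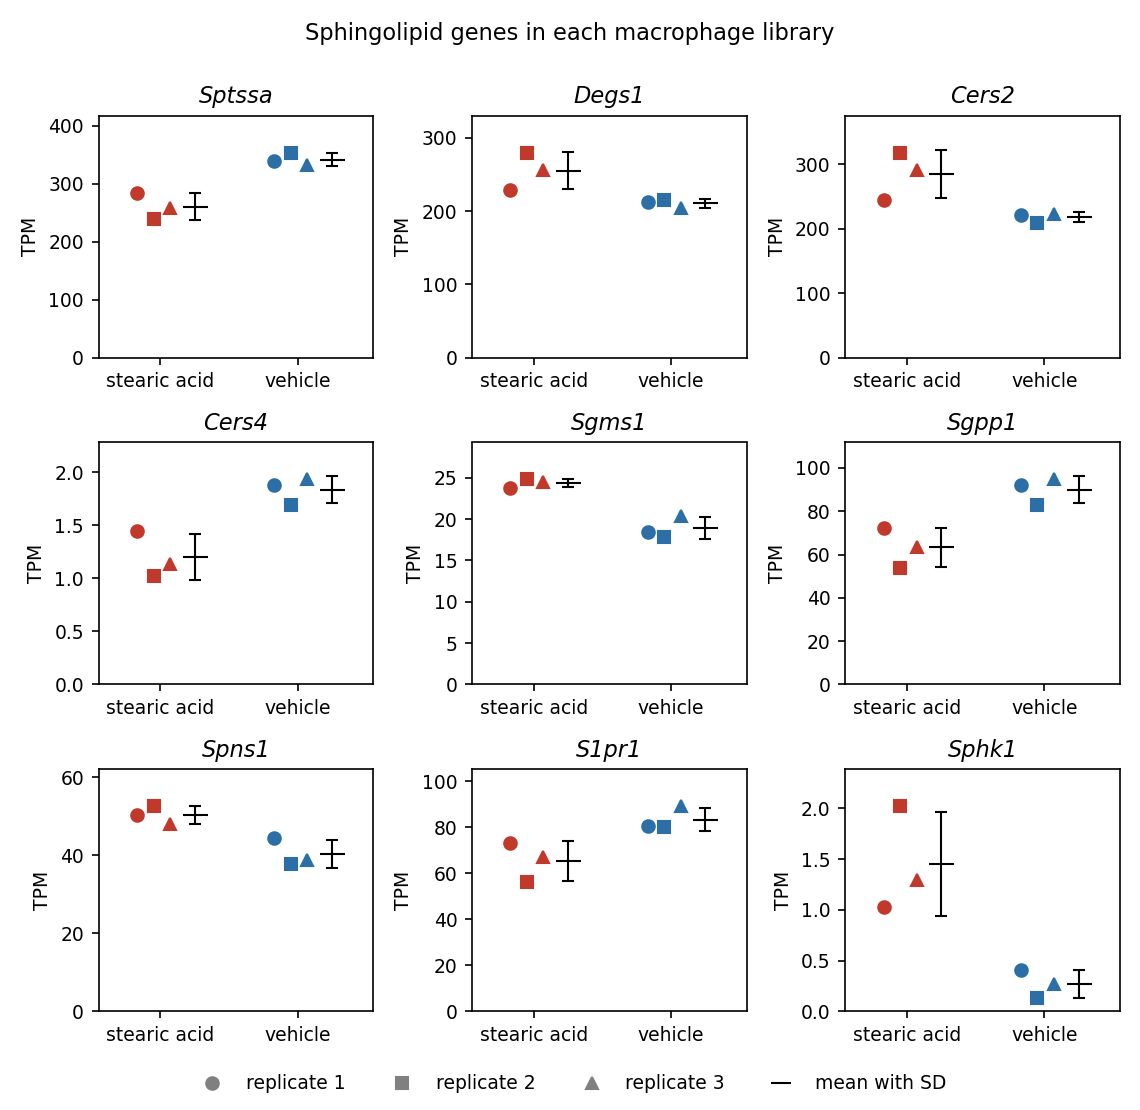
TPM in each library (points, shaped by replicate; stearic acid left, vehicle right) with the mean and SD of each group (n = 3), for the 8 called members and for Sphk1, which lay below the filter. The groups do not overlap in any of the 9 panels, and stearic acid replicate 1 is the treated library nearest the vehicle mean in all of them but Spns1.

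RefSeq promoters were at hand for 33 of the 35 listed genes and were searched for elements of 3 factors that respond to amino acid stress, oxidants or sterols. The letters were TTGCATCA for ATF4, TGACNNNGC for the antioxidant element and TCACNCCAC for the sterol element, on both strands, in windows of 250 bases before to 50 after each start site (GRCm38.p6). Among the 29 tested members with a window, none held the ATF4 or the sterol letters and 1, Ugcg, held the antioxidant letters. These letters occur in 0.718%, 1.38% and 17.2% of 9335 tested genes with a window for the ATF4, sterol and antioxidant elements. Sphk1, below the filter, holds the antioxidant letters 52 and 126 bases before 2 of its 5 start sites, which is 1 site seen in 2 overlapping windows. Of 26 tested genes of the pathway outside the list, 4 held the antioxidant letters and 1 the ATF4 letters. Psap, with the same 9 letters as Sphk1, and Samd8, with the ATF4 letters, are shown because both were called higher, so they were picked by outcome. Galc, Hexa and Scarb2 also held the antioxidant letters and did not pass (log2 fold change -0.30, 0.04 and 0.11). In Sphk1 and Psap the match contains TGAGTCA, the letters of an AP-1 site. The stretches below are on the forward strand of GRCm38.p6 with the match in capitals and 10 bases on each side.
Sphk1, chr11:116531775-116531803: tgagcgtgtcGCTGAGTCAccttctcgga
Ugcg, chr4:59189376-59189404: agagcgcgcaGCGCGGTCAgcctgcgctc
Psap, chr10:60277598-60277626: gctgcgcgacGCTGAGTCAagctgcgccc
Samd8, chr14:21750304-21750331: aacaaataaaTGATGCAActtgaggact
A match is a description of the letters and not a measured site. Ugcg did not pass in limma, and Sphk1 was higher in every stearic acid library. A link between these letters and the levels was not tested.

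A further 50 genes of sphingolipid metabolism, outside the 35, were listed from textbook knowledge. Earlier results of these data were known when the list was made, so its counts are a description. Of these, 33 were tested, and 11 were higher, 2 were lower and 20 did not pass. The calls are 39.4% of those tested, against 24.7% of all tested genes, and the median log2 fold change was 0.10 against -0.03 for all tested genes. Without single libraries the rises numbered 14, 7 and 4 (stearic acid replicates 1, 2 and 3) and 6, 4 and 4 (vehicle replicates 1, 2 and 3). Calls among all 11551 tested genes ranged from 550 to 5010 in these fits. Plpp3, a phosphatase of the cell surface that acts on S1P and other lipid phosphates, had the largest change. It was at 6.63, 10.4 and 7.69 TPM with stearic acid against 2.00, 1.45 and 1.89 TPM with vehicle (log2 fold change 1.72, SE 0.15, limma adjusted p = 0.00036), and every treated library exceeded 3 times the highest vehicle library. Samd8, a relative of the sphingomyelin synthases that makes ceramide phosphoethanolamine, was at 23.9, 26.7 and 23.5 TPM with stearic acid against 15.0, 13.3 and 15.3 TPM with vehicle (log2 fold change 0.73, SE 0.08, limma adjusted p = 0.0015). The calls of Plpp3 and Samd8 held in each fit that left out 1 library.

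Among genes of glycolipid breakdown in the lysosome, 4 were higher and 1 was lower of 13 tested, and not all of them are described. The calls are 38.5% of those tested, against 24.7% of all tested genes. Psap, the precursor of the saposins that present sphingolipids to lysosomal enzymes, was at 5614, 5259 and 5076 TPM with stearic acid against 4185, 3667 and 4162 TPM with vehicle (log2 fold change 0.41, SE 0.08, limma adjusted p = 0.0095). It was the most abundant of the genes listed, and its call was lost with quantile normalization (limma adjusted p = 0.24) and with no filter (0.091). Gla, the alpha-galactosidase, was at 147, 156 and 143 TPM with stearic acid against 108, 110.2 and 117 TPM with vehicle (log2 fold change 0.41, SE 0.07, limma adjusted p = 0.0059). Gla kept its call in each fit without 1 library.

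Asah2, the neutral ceramidase, was lower, at 8.44, 5.56 and 6.71 TPM with stearic acid against 9.57, 8.96 and 10.4 TPM with vehicle (log2 fold change -0.44, SE 0.13, limma adjusted p = 0.038). It passed among fits without a single library only where stearic acid replicate 1 was left out (0.00054, against 0.063 to 0.14), and it did not pass with no filter (0.12). Of the other rises, Rtn4 (log2 fold change 0.36) encodes Nogo, whose B form restrains serine palmitoyltransferase, and B4galnt1 (0.38) makes complex gangliosides. Further risers were Smpd5 (0.35), Vapa (0.30), Neu1 (0.29) and Plpp2 (0.28), named after their values were seen. Col4a3bp, also called Cert1, which carries ceramide to the Golgi, averaged 42.8 ± 1.22 TPM with stearic acid and 40.1 ± 3.39 TPM with vehicle and did not pass. Cers1, Cers3 and Sptssb, alternatives to the expressed synthases and small subunit, were at or below 0.0858 TPM in every library.

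**Figure D5:**
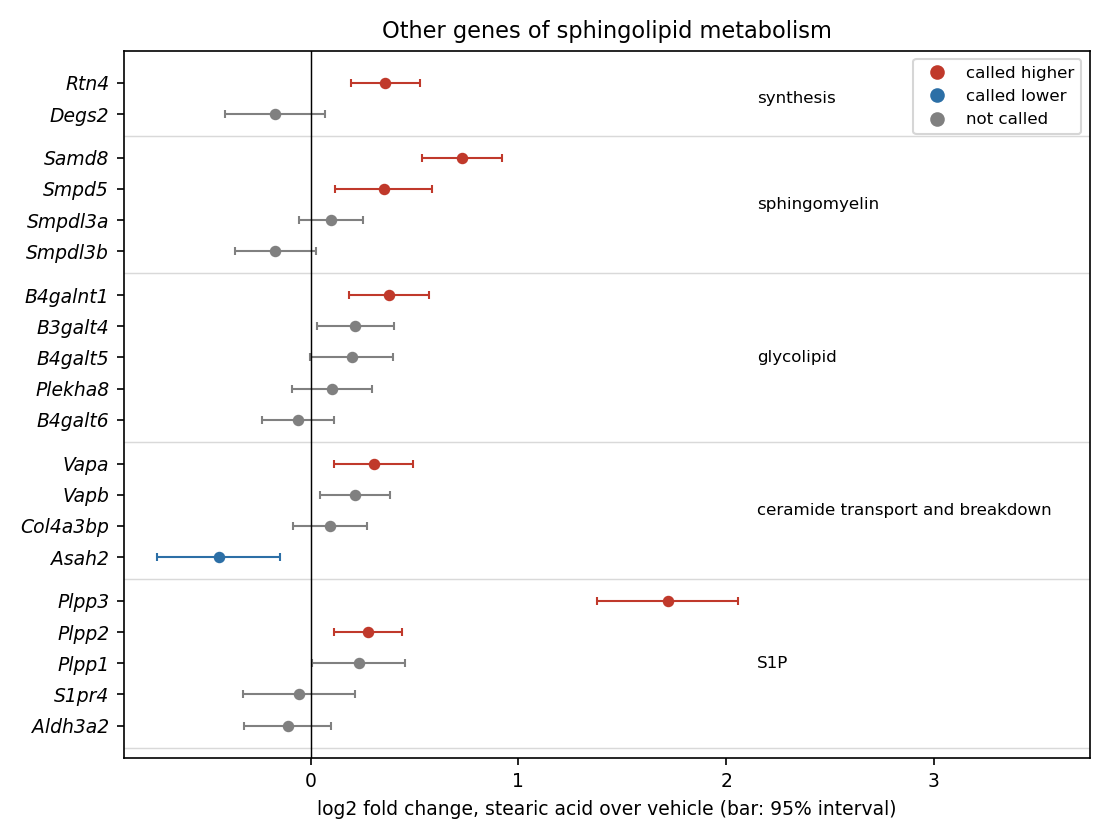
Log2 fold change of stearic acid over vehicle with its 95% interval (horizontal axis) for 20 of the 33 tested genes of sphingolipid metabolism outside the member list, grouped by step and without those of lysosomal glycolipid breakdown. Plpp3 at 1.72 and Samd8 at 0.73 stand at the right, and Asah2 at -0.44 is the gene called lower among those drawn.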

How the data were processed

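Polyadenylated RNA of 6 macrophage libraries was sequenced from stranded TruSeq mRNA libraries, per the labels' protocols. The authors deposited a table per library with TPM and RPKM (reads per kilobase per 1000000 reads) for 36333 genes, per the file headers. Within a library RPKM is TPM times a constant. The submitters' processing notes name DRAGEN and the builds GRCm38 and mm10. The sources used here do not give the annotation or the counting rule, nor whether strand was used. Of the gene numbers, 97.3% matched RefSeq (GRCm38.p6), which gave coordinates. Exon overlaps were read from GENCODE M21.

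Genes averaging 1 TPM or more were tested with limma 3.58.1 (R 4.3.3; trended prior) on log2(TPM + 1), with treatment as the only term and Benjamini-Hochberg adjustment at 0.05. Fold changes on this scale understate those of low genes. Sums, shares and genes below the filter had two-sided exact permutation tests over 20 assignments (scipy 1.17.1). All members are named. Of the other sphingolipid genes, up to 4 called per direction with the smallest p are described, and further ones were named after their values were seen. Some results are not reported here. The fit was tested on simulated data.

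Depth, recovered from RPKM steps of single-exon genes, was 58.1 to 80.8 M (1000000) reads or read pairs, with 75.4% to 80.8% of checked values whole within 0.02. At that depth 1 TPM stands for 19.1 to 27.7 reads per kilobase. Counts were not rebuilt. The members and lists were chosen with earlier results of these data known. Alternatives were pseudocounts, filters, scalings, RPKM, limma without trend, a replicate block and leaving out each library.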

Additional observations from a re-analysis of the deposited data

How the results depend on the processing

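No member changed sign past the threshold under any alternative run, but the counts of calls moved. Leaving out 1 library gave 550 to 5010 called genes of 11551 (2856 with all libraries), 0 to 5 members higher, 0 to 6 members lower, 4 to 14 other sphingolipid genes higher and 1 to 5 lower. The members' median log2 fold change was then -0.056 to -0.021. With no filter on low values 1027 of 21632 tested genes were called, among them 3 of the 34 listed genes tested. Of these, Sgms1 and Sphk1, which lies below the filter, were higher and Sptssa was lower. Of the other sphingolipid genes, 5 were then higher and 2 lower. With RPKM 3115 of 10289 tested genes were called, and of 29 tested members 8 were higher and 3 lower. At an unadjusted limma p under 0.05, 31.0% of these members and 26.3% of all tested genes were higher. The members' median was then -0.0086 and the summed synthesis level differed by -0.033 on the log2 scale. With median-of-ratios scaling the median was -0.0092. RPKM and median-of-ratios scaling each multiply all genes of a library by 1 factor. The median over all tested genes moved too, to 0.021 with RPKM and 0.014 with median-of-ratios scaling (-0.028 with TPM as deposited). RPKM values were 0.329 to 0.361 times TPM, while the pseudocount and the filter stayed at 1. The RPKM fit therefore tested fewer genes, 10289 against 11551, and its median covers another set of genes. The cause of these shifts, and of those in counts of calls, was not tested. Deviations of same-numbered libraries correlated at 0.07, 0.29 and 0.04 across genes, and those of differently numbered libraries at -0.32 to 0.28. Stearic acid replicates 1 and 3 correlated better with a vehicle library of another number. With 3 libraries a group these values cannot decide whether replicate numbers pair the samples. The fit with a replicate block called 3638 genes, 4 members higher, 4 lower, and 11 other sphingolipid genes higher and 3 lower. Depth limits Sphk1, Acer2, Spns2 and Cers4.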
